A study of Phyllostachys edulis with 2 samples.

Results

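A group of 483 root cells of moso bamboo (Phyllostachys edulis) was set apart by 6 genes, among 7093 cells with at least 4000 UMIs (unique molecular identifiers, 1 for each captured transcript). The rule asked for high PH02Gene02039 and for high PH02Gene10382 or PH02Gene17549. PH02Gene02039 and PH02Gene10382 are markers of the cells that the study places between root cap initials and mature root cap. It also counts these cells as root cap. Its placement rests on maps of clustered cells, a computed order of differentiation and hybridization in root sections, none of which was repeated here. The study reports PH02Gene10382 in columella root cap and in epidermis, and PH02Gene17549 is on its gene list for these cells. The rule also asked for little PH02Gene04325, a marker of initials, and set upper limits on PH02Gene29592, annotated as a translationally-controlled tumor protein homolog, and PH02Gene00514, annotated as the aquaporin PIP1-1. In CPM, a gene's UMIs per 1000000 UMIs of the cell, PH02Gene02039 had to reach 1200, the sum of PH02Gene10382 and PH02Gene17549 had to reach 600, and PH02Gene04325, PH02Gene29592 and PH02Gene00514 had to stay under 300, 3000 and 400. These cells are called gated cells here, because values given further on did not bear out a place between initials and root cap as particular to them.

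The cells were protoplasts, that is cells freed of their walls by enzymes, from basal root tips of plants some weeks old. The 2 libraries, of 10x Genomics droplets, are called replicate 1 and replicate 2, and both came from the same condition, so there was no treated or control group. The labels do not say whether the replicates were separate plants, and a p-value below measures only the spread between these 2 libraries. Where a pair of values is given, replicate 1 comes first.

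The root cap is the tissue that covers the growing tip, senses gravity, secretes mucilage and sheds its outer cells. It is renewed from initials, which are dividing stem cells at the tip, and daughter cells mature as they are pushed outward. Proteins and organelles are turned over on this path, partly by autophagy, in which the cell encloses its own contents in membranes and degrades them.

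The gated cells numbered 248 of 3423 cells (7.25%, exact 95% binomial interval 6.40% to 8.17%) in replicate 1 and 235 of 3670 cells (6.40%, 5.63% to 7.24%) in replicate 2, and averaged 6.82% ± 0.595 (SD, n = 2). The intervals cover counting error only, and they overlapped. The gated cells had a median of 8353.5 and 9393 UMIs, close to the medians of 7913 and 8735 UMIs in all other cells, and their UMIs summed to 2256692 and 2398149. Of 15 barcodes that occurred in both libraries, 0 were among the gated cells. Doublets were not removed, and no caller for them was run.

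To locate the gated cells, 3 sets of other cells were formed from the study's markers by fixed limits. Initial-type cells had at least 300 CPM of PH02Gene04325 (348 and 356 cells). Root cap cells had at least 300 CPM of the root cap marker PH02Gene15627 and less than 300 CPM of PH02Gene04325 (165 and 191 cells). Epidermis-type cells had at least 3000 CPM of PH02Gene29592 and at least 300 CPM of the epidermis marker PH02Gene14566, without the limits on PH02Gene04325 and PH02Gene15627 being reached (688 and 935 cells). Cell types were not clustered anew, and the names rest on these few genes.

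The study located its markers in root sections with antisense oligonucleotide probes, and 3 of the 5 probe sequences read here are printed because they show how alike the markers of different cells can be. In the first probe, the capitals mark the reverse complement of the start codon. In the other probes, the capitals mark the longest run shared between both, and that run holds the whole 91-base probe of the epidermis marker.
PH02Gene02039: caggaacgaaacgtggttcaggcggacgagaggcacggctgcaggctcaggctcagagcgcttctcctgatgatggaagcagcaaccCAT
PH02Gene10382: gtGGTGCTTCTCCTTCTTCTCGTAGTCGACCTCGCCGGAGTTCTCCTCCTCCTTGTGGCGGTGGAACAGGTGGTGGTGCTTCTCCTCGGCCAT
PH02Gene14566: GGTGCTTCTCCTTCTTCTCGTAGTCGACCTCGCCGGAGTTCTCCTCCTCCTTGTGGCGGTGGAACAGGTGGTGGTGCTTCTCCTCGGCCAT
The probe of PH02Gene10382 has 93 bases and that of PH02Gene14566 has 91, and all 91 were shared. By contrast, the longest run that the PH02Gene02039 probe of 90 bases shared with any other was 9 bases. PH02Gene10382 and PH02Gene14566 may therefore be near-identical copies, and how the authors' counting divided reads between them is uncertain. PH02Gene10382 stood at 1030.3 and 806 CPM in gated cells and at 139 and 140.5 CPM in epidermis-type cells, and PH02Gene14566 at 342 and 403 CPM in gated cells and 1507 and 1412 CPM in epidermis-type cells. The limits that formed the groups raised PH02Gene10382 in gated cells and PH02Gene14566 in epidermis-type cells, while the other levels had no limit of their own. How reads were divided cannot be told from these levels.

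The genes of the rule are given as a description, since they chose the cells. When the UMIs of each group were summed, PH02Gene02039 was at 2967 and 3033 CPM in gated cells, 1582 and 1805 CPM in initial-type cells, 417 and 467 CPM in root cap cells, and 926 and 979 CPM in all other cells. PH02Gene17549, annotated as NAC transcription factor 29-like, was at 564 and 529 CPM in gated cells, 443 and 387 CPM in initial-type cells, and 171 and 160.4 CPM in all other cells. PH02Gene02039 was thus abundant outside the gate as well. Of the sets compared, the initial-type cells had levels nearest to the gated cells in these genes. However, 91 of 348 and 87 of 356 initial-type cells passed both lower limits and were barred by PH02Gene04325 alone. No kinship of the groups is read from genes that chose the cells. PH02Gene04325 was at 69.6 and 68.4 CPM in gated cells, against 115 and 109 CPM in all other cells. PH02Gene29592 was at 1154 and 1352 CPM in gated cells, against 3907 and 4228 CPM in all other cells, and PH02Gene00514 was at 37.7 and 48.8 CPM in gated cells, against 208 and 233 CPM in all other cells.

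**Figure D1:**
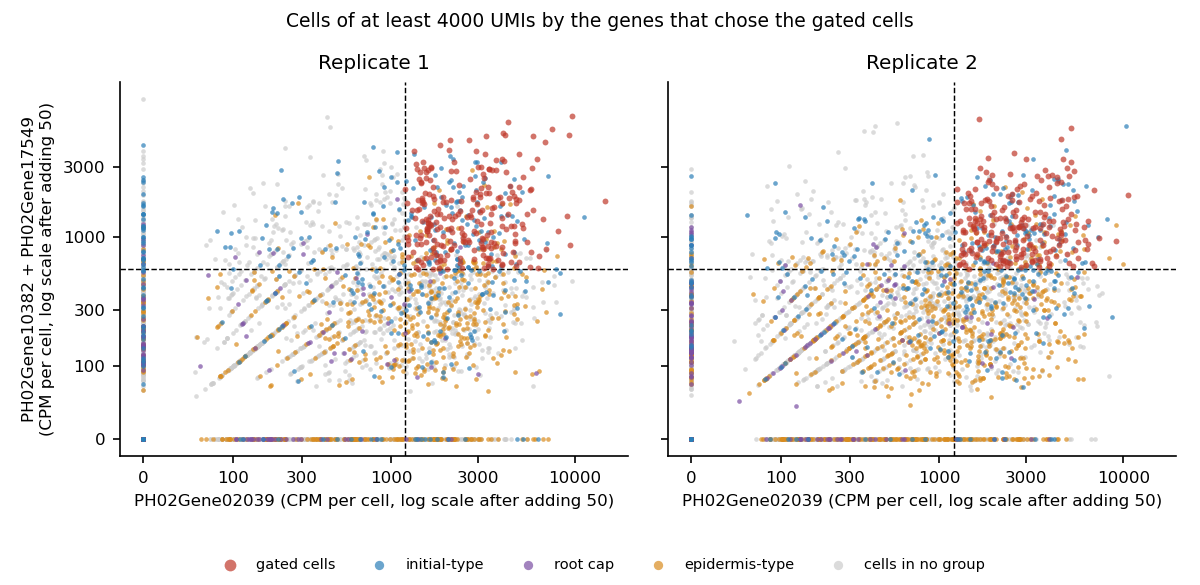
PH02Gene02039 (x axis) against the sum of PH02Gene10382 and PH02Gene17549 (y axis), both in CPM per cell on a log scale after adding 50, for every cell of at least 4000 UMIs, coloured by group, with dashed lines at the limits of 1200 and 600 CPM. The gated cells fill the upper right corner by construction, and initial-type and epidermis-type cells that also pass both limits lie among them, with no gap at either line.

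Both lower limits were passed by 421 and 439 cells. Of these, 91 and 87 cells were turned away by PH02Gene04325 alone, 70 and 87 by PH02Gene29592 alone, 0 and 3 by PH02Gene00514 alone, and 12 and 27 by more than 1 limit. The limits cut through a continuous range. The 10 cells nearest to the limit of 1200 CPM on the inside had a median of 1241 and 1299.6 CPM of PH02Gene02039, and the 10 nearest on the outside had 1161 and 1175 CPM. For the pair of genes these medians were 609.7 and 633 CPM inside, and 576 and 577 CPM outside. The 10 cells nearest to the PH02Gene04325 limit had a median of 267 and 253 CPM inside, and 342 and 317 CPM outside. In a cell of 4000 UMIs 1 UMI is worth 250 CPM, so that this limit separates cells by about 1 molecule at the lowest depth. UMIs of both PH02Gene10382 and PH02Gene17549 were present in 202 and 193 of the gated cells, of PH02Gene10382 alone in 22 and 23, and of PH02Gene17549 alone in 24 and 19.

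The root cap marker PH02Gene15627 was found in few gated cells. After each cell was thinned to 4000 UMIs, a UMI of it was present in 6.86% and 8.09% of gated cells, against 6.90% and 6.18% of initial-type cells, which were formed with no limit on it. The share was 6.69% and 8.24% in epidermis-type cells, which were limited to under 300 CPM of it. Median depth before thinning was 8353.5 and 9393 UMIs in gated cells, 8258 and 10261.5 UMIs in initial-type cells and 9141 and 9489 UMIs in epidermis-type cells. The share in gated cells was not above that of initial-type cells beyond counting error, and is not read as expression. Whether free RNA gave these UMIs was not tested. Before thinning, 34 and 29 gated cells held a UMI of it, and 7 and 7 reached 300 CPM, the limit that formed the root cap cells.

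What else the gated cells expressed was asked first against all other cells of the same library, on summed UMIs with edgeR's quasi-likelihood test. Of 24197 genes outside the rule, 4036 were called higher in gated cells (16.7%) and 3897 lower (16.1%) at an adjusted p under 0.05, and 983 (4.06%) and 2633 (10.9%) of them by at least 2-fold. Of the genes lower by at least 2-fold, 2010 rested on under 30 UMIs in gated cells. Because the cells were chosen on 6 genes of the same cells, these calls show only that differences exceeded the spread between the libraries. They also depend on the scaling: fold changes are given after TMM scaling, under which a gene of equal CPM in both groups has a log2 fold change of 0.26. With scaling to total UMIs alone, the median log2 fold change of all genes was -0.37, against -0.11 after TMM scaling, and 2241 genes were called higher and 6360 lower.

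**Figure D2:**
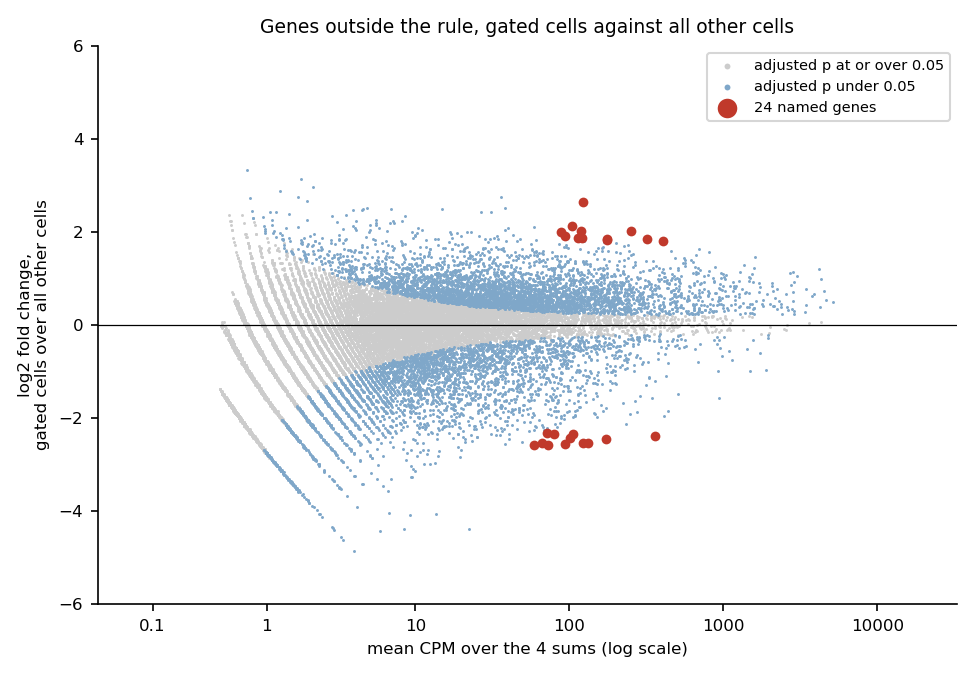
Log2 fold change in gated cells over all other cells (y axis) against mean CPM over the 4 sums (x axis, log scale) for the genes outside the rule, with called genes in blue and the 24 named genes in red. The named rises lie between 1.80 and 2.63 and the named falls between -2.58 and -2.32 on the log2 scale, while the most extreme values belong to genes of few counts.

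Among genes of at least 100 CPM in the higher group, PH02Gene39337, which has no description, rose most. It was at 221 and 193 CPM in gated cells and 38.8 and 41 CPM in all other cells (log2 fold change 2.63 ± 0.094 SE, adjusted p = 3.71e-12). PH02Gene18400, annotated as an uncharacterized protein, followed with 166 and 161 CPM in gated cells and 45.5 and 44.7 CPM in all other cells (2.12 ± 0.09, adjusted p = 1.27e-11). In both genes the replicates of a group lay close together, and the groups were far apart. They were picked as the largest rises, so this is not further evidence.

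PH02Gene33231 is annotated as strigolactone esterase D14, which in rice is the receptor of strigolactone hormones. It was at 509 and 457 CPM in gated cells and 163 and 158 CPM in all other cells (log2 fold change 1.85 ± 0.079, adjusted p = 1.28e-11). PH02Gene21684, annotated as UDP-glycosyltransferase 83A1, an enzyme class that attaches sugars to small molecules, was at 269 and 262 CPM in gated cells and 94.8 and 84.4 CPM in all other cells (1.83 ± 0.086, adjusted p = 2.9e-11). PH02Gene43520, annotated as nudix hydrolase 13, was at 646 and 570.0 CPM in gated cells and 215 and 202 CPM in all other cells (1.80 ± 0.08, adjusted p = 2.03e-11). Of the 12 named rises, these 3, PH02Gene39337 and PH02Gene18400 are given in full, and PH02Gene30487, PH02Gene08985, PH02Gene33183, PH02Gene02463, PH02Gene05401, PH02Gene34737 and PH02Gene30246 lay between them in size. Against initial-type cells 9 of the 12 were called higher and 2 did not pass, while PH02Gene43520 was lower, with 846 and 701 CPM in initial-type cells (-0.34 ± 0.11, adjusted p = 0.0351). The 12 were picked as the largest rises against all other cells, which include the initial-type cells, so this count is not independent evidence. Of all genes tested, 6.6% were called higher than in initial-type cells.

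The falls were led by genes without a description, among them PH02Gene39458, PH02Gene24010, PH02Gene17551, PH02Gene32592, PH02Gene24450, PH02Gene16129, PH02Gene43616, PH02Gene00035, PH02Gene18638 and PH02Gene28596. PH02Gene02887 was at 86.9 and 112 CPM in gated cells and 613 and 630.3 CPM in all other cells (log2 fold change -2.38 ± 0.1, adjusted p = 1.27e-11). PH02Gene06911, annotated as 60S ribosomal protein L15-2, was at 28.4 and 38.4 CPM in gated cells and 230.2 and 233 CPM in all other cells (-2.53 ± 0.12, adjusted p = 3.61e-11). It is a marker of a cluster that the study left undefined, and the other markers of that cluster, the ribosomal proteins PH02Gene29817 and PH02Gene23345, fell as well, so that 3 of 3 were lower. All 12 named falls were also lower than in epidermis-type and root cap cells, and 11 of 12 were lower than in initial-type cells. These groups are part of all other cells, against which the 12 were picked as the largest falls. The direction was thus largely set by that choice. Of all genes tested, 21.2% were called lower than in epidermis-type cells, 20.5% than in root cap cells and 6.72% than in initial-type cells.

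The listed genes of protein and lipid turnover were higher in gated cells than in all other cells. Their lists were drawn largely from the descriptions the study gives for genes it chose on these same cells, so their direction is not independent evidence. Of 6 autophagy genes, 5 were from that choice, and all 6 were called higher (median log2 fold change 0.90, against -0.11 over all genes tested). PH02Gene12244 encodes ATG8C, the small protein that is attached to the autophagosome membrane. It was at 880.0 and 940.3 CPM in gated cells and 446 and 487 CPM in all other cells (1.22 ± 0.078, adjusted p = 7.83e-10). PH02Gene29317 encodes ATG13a, which activates the kinase that starts autophagy, and was at 214 and 202 CPM in gated cells and 98.6 and 89.8 CPM in all other cells (1.41 ± 0.087, adjusted p = 5.76e-10). All 6 genes were also called higher with scaling to total UMIs alone.

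The peroxisome and glyoxylate list had 8 of 8 genes higher (median log2 fold change 1.07), all 8 from the study's choice. PH02Gene35891, annotated as phosphoenolpyruvate carboxykinase, which turns oxaloacetate into a precursor of sugars, was at 1963 and 1696 CPM in gated cells and 954 and 856 CPM in all other cells (1.28 ± 0.08, adjusted p = 7.23e-10). PH02Gene05899, annotated as a peroxisomal 3-ketoacyl-CoA thiolase, which cleaves fatty acids in beta-oxidation, was at 489 and 444 CPM in gated cells and 249 and 229.9 CPM in all other cells (1.22 ± 0.079, adjusted p = 1.06e-09). Both genes were already called higher and came from the study's choice, so the lack of overlap of their replicates is not further evidence. Genes that attach ubiquitin or related proteins, which mark other proteins for removal, were higher in 9 of 9 cases (median 0.85), all 9 from the study's choice, and in 8 of 9 with total UMIs alone. PH02Gene21763, annotated as the ubiquitin ligase BAH1-like, was at 154 and 127 CPM in gated cells and 54 and 48.6 CPM in all other cells (1.71 ± 0.1, adjusted p = 4.18e-10).

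Stress and amino acid enzymes formed a further set from the study's choice. All 7 glutathione transferases, which couple glutathione to reactive compounds, were called higher (median log2 fold change 0.78), and 5 of 7 with scaling to total UMIs alone, where PH02Gene47351 turned to -0.02. PH02Gene22557, annotated as GSTU6, was at 1247 and 1236 CPM in gated cells and 696 and 679 CPM in all other cells (1.11 ± 0.07, adjusted p = 7.23e-10). The 4 enzymes of the shikimate and tryptophan pathways, which lead to aromatic amino acids, were higher as well (median 0.96), and 3 of them with total UMIs alone. PH02Gene23711, annotated as the tryptophan synthase alpha chain, was at 608 and 564 CPM in gated cells and 346 and 353 CPM in all other cells (1.01 ± 0.075, adjusted p = 5.99e-09). Of the genes listed by the study for its cluster of these cells, 168 were tested and 165 were higher (median 0.98). That list is held here only in part and was chosen on these cells, so the count describes how closely the gate follows the cluster.

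Transcription regulators were taken from the families that the study lists for its path from initials to root cap, a list that was also made on these cells. Both TAZ genes were higher than in all other cells. PH02Gene11309 is annotated as BTB/POZ and TAZ domain-containing protein 2-like, a type of protein that bridges transcription factors and ubiquitin ligases. It was at 1122 and 1007 CPM in gated cells and 677 and 671 CPM in all other cells (log2 fold change 0.92 ± 0.074, adjusted p = 1.5e-08). PH02Gene13991 was at 849 and 714 CPM in gated cells and 539.7 and 497 CPM in all other cells (0.85 ± 0.083, adjusted p = 1.69e-07). PH02Gene22100, the other gene annotated as NAC29-like besides the rule gene PH02Gene17549, was at 241 and 208 CPM in gated cells and 92 and 78.9 CPM in all other cells (1.66 ± 0.096, adjusted p = 3e-10). It came from the study's choice.

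The other families were split, and their counts are to be read beside the 16.7% of all genes that were higher and the 16.1% that were lower (9.26% and 26.3% with total UMIs alone). Of 8 NAC genes, 6 were higher, 1 was lower and 1 did not pass, against 4 higher and 2 lower with total UMIs alone. The lower one after TMM scaling was PH02Gene04543, annotated as NAC domain-containing protein 67, with 54.5 and 52.5 CPM in gated cells and 242 and 243 CPM in all other cells (-1.92 ± 0.1, adjusted p = 9.32e-11). Of 9 calcium-dependent protein kinases, which act on calcium signals, 6 were higher and 2 lower, against 5 and 3 with total UMIs alone. Of 14 Tify genes, which include repressors of the jasmonate response, 6 were higher and 3 lower (median 0.02), and 2 were higher and 7 lower with total UMIs alone, where the median was -0.24. Of 16 AP2/ERF genes 7 were higher and 3 lower (median 0.05), and 4 were higher and 7 lower with total UMIs alone (median -0.21). The lower Tify and AP2/ERF genes after TMM scaling were near the share of all genes. AUX/IAA genes, which repress auxin response genes, stood on the other side: 0 of 9 were higher and 7 were lower (median -0.78), also with total UMIs alone. PH02Gene30498, one of them, was at 42.1 and 42.1 CPM in gated cells and 88.8 and 99.6 CPM in all other cells (-0.90 ± 0.12, adjusted p = 1.03e-05).

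**Figure D3:**
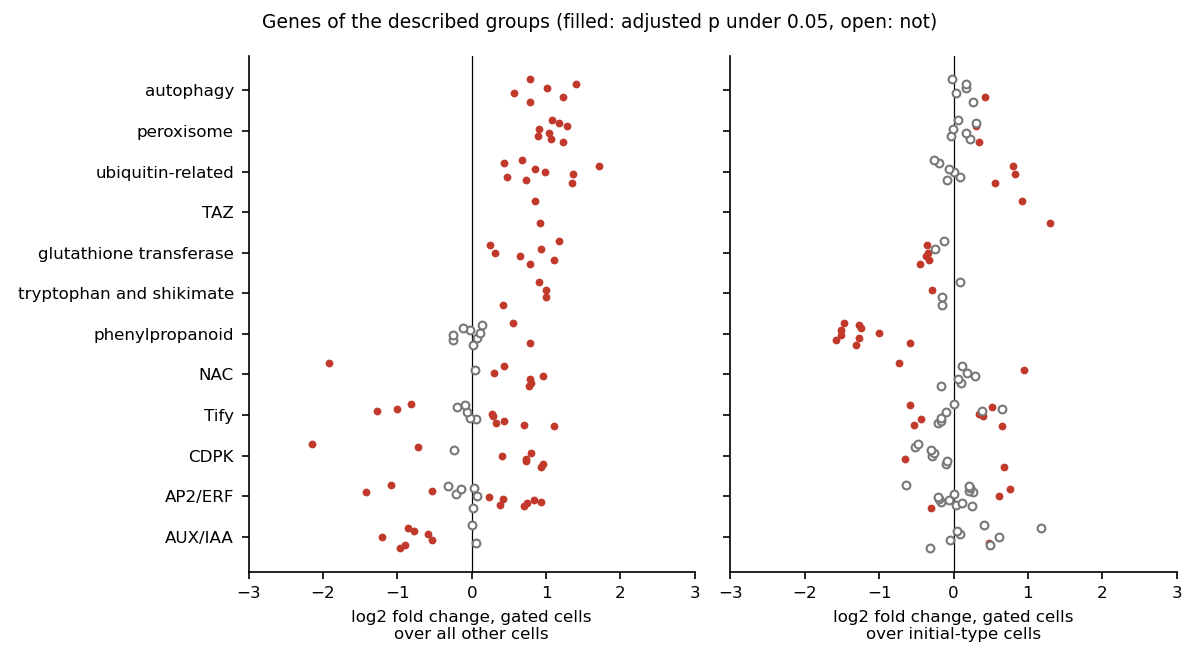
Log2 fold change of each gene in 12 groups of genes (rows), in gated cells over all other cells (left) and over initial-type cells (right), filled where the adjusted p was under 0.05. Autophagy, peroxisome, ubiquitin-related, glutathione transferase and tryptophan genes are all above 0 on the left (with total UMIs alone 1 glutathione transferase, PH02Gene47351, is at -0.02), whereas on the right the glutathione transferases lie between -0.45 and -0.13, the ubiquitin-related genes between -0.27 and 0.82 and the phenylpropanoid genes between -1.58 and -0.58.

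Of 24 markers that the study uses for its clusters and that lie outside the rule, 5 were higher in gated cells than in all other cells, 13 were lower and 6 did not pass, and 3 were higher and 15 lower with total UMIs alone. The higher markers (20.8%, or 12.5% with total UMIs alone) were near the share of all genes (16.7% and 9.26%). The lower ones (54.2% and 62.5%) were above it (16.1% and 26.3%). Of 2 initial markers outside the rule, 1 was higher (log2 fold change 0.56). Among the higher ones was the ground tissue marker PH02Gene05035, annotated as a probable ubiquitin ligase, with 772 and 662 CPM in gated cells and 496 and 467 CPM in all other cells (0.84 ± 0.08, adjusted p = 1.43e-07). PH02Gene41010, of an undefined cluster, was higher too, with 448 and 558 CPM in gated cells and 253 and 269 CPM in all other cells (1.21 ± 0.092, adjusted p = 7.16e-09). The ground tissue marker PH02Gene29708 was called higher by 0.24 and turned to -0.02 with total UMIs alone, and both ground tissue markers of another cluster, PH02Gene15920 and PH02Gene36478, were lower. The root cap markers of 3 of the study's 4 root cap clusters, 6 genes in all, were lower, with PH02Gene15627 at 28.8 and 25 CPM in gated cells and 67.2 and 66 CPM in all other cells (-1.05 on the log2 scale). Of these, PH02Gene28681 and PH02Gene48860 were near the floor, with summed levels of 10 and 5 CPM in gated cells and 38 and 60 CPM in all other cells. The marker PH02Gene17668 of the fourth cluster, annotated as a zinc finger protein, was at 1409.6 and 1588 CPM in gated cells and 1341 and 1402 CPM in all other cells (0.39 ± 0.076, adjusted p = 0.000535), and it was not called with total UMIs alone. The other marker of that cluster, PH02Gene07817, did not pass (0.23 ± 0.11, adjusted p = 0.106). Against initial-type cells both markers of the fourth cluster were called higher, by 0.34 and 0.66 on the log2 scale, beside 6.6% of all genes. None of the 6 markers of the other root cap clusters was called there. Vascular genes (xylem cellulose synthases, a homeodomain factor and xylem proteases) had 1 of 18 tested genes higher and 5 lower (0 and 9 with total UMIs alone), beside 16.1% of all genes lower after TMM scaling and 26.3% with total UMIs alone, and most of them were under 10 CPM in gated cells. Of the 3 endodermis genes 2 were higher, and 1 of them, PH02Gene13428, an ortholog of MYB36, which in Arabidopsis directs the Casparian strip, was at 99.3 and 93.8 CPM in gated cells and 72.3 and 64.8 CPM in all other cells (0.75 ± 0.1, adjusted p = 8.89e-06). Against initial-type cells 0 of the 3 were higher, 1 was lower and 2 did not pass (median -0.40). Neither of the 2 histone H3 genes, which are used as marks of dividing cells, passed the test against all other cells, and PH02Gene17224 was at 26.1 and 36.3 CPM in gated cells and 12.8 and 22.5 CPM in initial-type cells (0.79 ± 0.23, adjusted p = 0.0226).

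Fewer genes were called against initial-type cells. Of 16810 genes tested, 1110 were called higher (6.6%) and 1130 lower (6.72%), and the median over all genes was -0.01. The gap to the percentages against all other cells was not tested, since the groups differ in size. Few of the turnover genes that were higher than in all other cells passed the test here. Among the autophagy genes 1 of 6 was higher, PH02Gene12244, with 645 and 709.5 CPM in initial-type cells (0.43 ± 0.093, adjusted p = 0.00247). The peroxisome list had 2 of 8 genes higher, the ubiquitin-related list 3 of 9, and the shikimate and tryptophan list 0 of 4 higher and 1 lower. The glutathione transferases were lower in 5 of 7 cases (median -0.34). Of the list that the study chose on its own cluster, 48 of 168 genes were higher than in initial-type cells and 35 were lower (median 0.03).

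Genes of phenylpropanoid synthesis, the path from phenylalanine to lignin and flavonoids, differed from initial-type cells throughout. All 10 were lower in gated cells (median log2 fold change -1.29), while against all other cells 2 were higher and 8 did not pass (median 0.04), and 2 were higher and 2 lower with total UMIs alone (median -0.22). PH02Gene30511, a phenylalanine ammonia-lyase, catalyses the entry step and is itself a marker the study uses for initials. It was at 361 and 348 CPM in gated cells, 1054 and 918 CPM in initial-type cells, and 214 and 172 CPM in root cap cells (-1.47 ± 0.11 against initial-type cells, adjusted p = 5.74e-09). PH02Gene30509, also such a marker, was lower as well, with 500.3 and 586 CPM in gated cells and 1123 and 1051 CPM in initial-type cells.

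The TAZ genes moved in the opposite direction. PH02Gene11309 was at 427 and 444 CPM in initial-type cells, so that gated cells were higher by 1.29 ± 0.097 on the log2 scale (adjusted p = 6.28e-09), and PH02Gene13991 was at 423 and 409 CPM there (0.91 ± 0.11, adjusted p = 2.84e-06). Both were also higher in gated cells than in root cap cells, where PH02Gene11309 was at 912 and 756 CPM (0.49 ± 0.097, adjusted p = 0.000316). Of the 8 NAC genes 1 was higher than in initial-type cells, 1 was lower and 6 did not pass. The higher one, PH02Gene34765, was at 755 and 664 CPM in gated cells, 342 and 398 CPM in initial-type cells and 1381 and 1316 CPM in root cap cells. It was higher than in initial-type cells (0.94 ± 0.1, adjusted p = 7.14e-07) and lower than in root cap cells (-0.79 ± 0.1, adjusted p = 1.13e-06), so its level lay between both.

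Other genes lay between the groups with the initial-type cells on top. PH02Gene38077, annotated as germin-like protein 1-1, a protein of the cell wall space, was at 1554 and 1738 CPM in gated cells, 3103 and 2835 CPM in initial-type cells and 437 and 544 CPM in root cap cells. It was lower than in initial-type cells (-0.85 ± 0.099, adjusted p = 1.88e-06) and higher than in root cap cells (1.87 ± 0.11, adjusted p = 4.98e-12). PH02Gene49134, annotated as germin-like protein 12-2, was at 1372 and 1174 CPM in gated cells, 2116 and 1891 CPM in initial-type cells and 819 and 590.2 CPM in root cap cells. Epidermis-type cells had 1724 and 1575 CPM of PH02Gene38077, and the difference of the gated cells from them did not pass the test (0.22 ± 0.098, adjusted p = 0.0759).

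**Figure D4:**
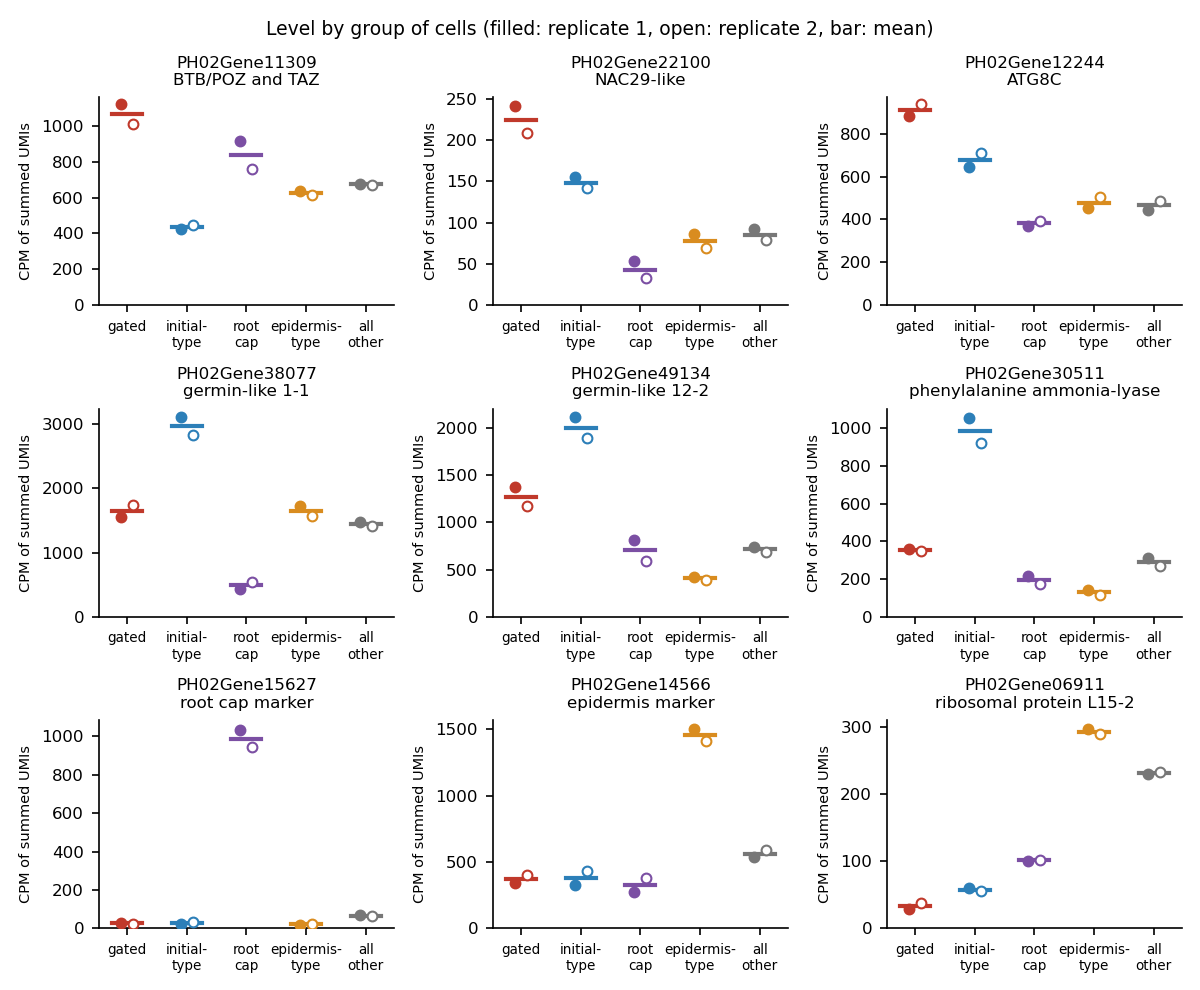
Level of 9 genes in CPM of summed UMIs (y axis, from 0) in gated cells, initial-type cells, root cap cells, epidermis-type cells and all other cells (x axis), with replicate 1 filled, replicate 2 open and the mean as a bar. PH02Gene11309, PH02Gene22100 and PH02Gene12244 are highest in gated cells, the germin-like genes and PH02Gene30511 are highest in initial-type cells, and PH02Gene15627 is near 25 CPM in gated cells.

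Against root cap cells, 3450 of 16809 genes were called higher in gated cells (20.5%) and 3449 lower (20.5%), and 2765 and 4098 with total UMIs alone. PH02Gene22100 was at 53 and 33 CPM in root cap cells (log2 fold change 2.54 ± 0.17, adjusted p = 7.26e-11), and PH02Gene13428 at 12.3 and 11.8 CPM (3.13 ± 0.2, adjusted p = 3.31e-11). All 9 AUX/IAA genes were lower in gated cells than in root cap cells (median -1.91). Against initial-type cells 1 was higher, 0 were lower and 8 did not pass (median 0.41), and against epidermis-type cells 1 was higher and 3 were lower (median -0.19). The study reports AUX/IAA genes as preferentially expressed in a ground tissue cluster, and the root cap cells also held ground tissue markers. Whether the difference from root cap cells belongs to root cap or to ground tissue was not tested. PH02Gene30498 was at 249.9 and 294 CPM in root cap cells (-2.56 ± 0.16, adjusted p = 1.5e-11). PH02Gene26026, a root cap marker annotated as a heavy metal-associated isoprenylated protein, was at 2.66 and 3.75 CPM in gated cells and 164 and 154 CPM in root cap cells (-5.48 ± 0.33, adjusted p = 1.45e-11). The list chosen by the study on its cluster had 160 of 168 genes higher and 1 lower here.

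Against epidermis-type cells, 4125 of 16809 genes were called higher in gated cells (24.5%) and 3566 lower (21.2%), and 2619 and 4878 with total UMIs alone. PH02Gene43520 was at 83.7 and 89.5 CPM in epidermis-type cells, far under its level in gated cells (3.03 ± 0.12, adjusted p = 3.03e-14). PH02Gene02887 was at 972 and 959 CPM in epidermis-type cells and was lower in gated cells (-3.06 ± 0.12, adjusted p = 3.03e-14).

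Whether the gated cells lie between initials and root cap was examined over 4904 genes that differed by at least 2-fold between root cap and initial-type cells (15.8% of genes were higher and 13.4% lower in root cap cells by this measure). The level in gated cells lay between both groups in both replicates for 2524 genes (51.5%), above both for 360 and below both for 475, and the replicates differed in this for 1545 genes. Of the 2524 genes, 1992 (78.9%) were nearer to the initial-type level. On a scale where 0 is the initial-type level and 1 the root cap level (log2), the median position was 0.13 for the 2655 genes higher in root cap cells and 0.21 for the 2249 genes higher in initial-type cells. The same count was larger for both other sets of cells examined. Epidermis-type cells lay between for 3187 genes (65.0%), with median positions of 0.58 and 0.43, and cells in no group, which may hold several types, root cap among them, lay between for 3311 genes (67.5%), with median positions of 0.78 and 0.49. Lying between initials and root cap was thus not particular to the gated cells, which on this scale stood nearer to the initial-type than to the root cap level. The cells compared differ in number, and positions carry the counting error of each sum. The ends of the scale were not pure either. Of the initial-type cells, 91 of 348 and 87 of 356 passed both lower limits of the gate and missed only the PH02Gene04325 limit. In replicate 1, after thinning, the ground tissue marker PH02Gene45651 was present in 73.3% of root cap cells, against 48.85% of all other cells. How this bears on the positions was not tested.

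**Figure D5:**
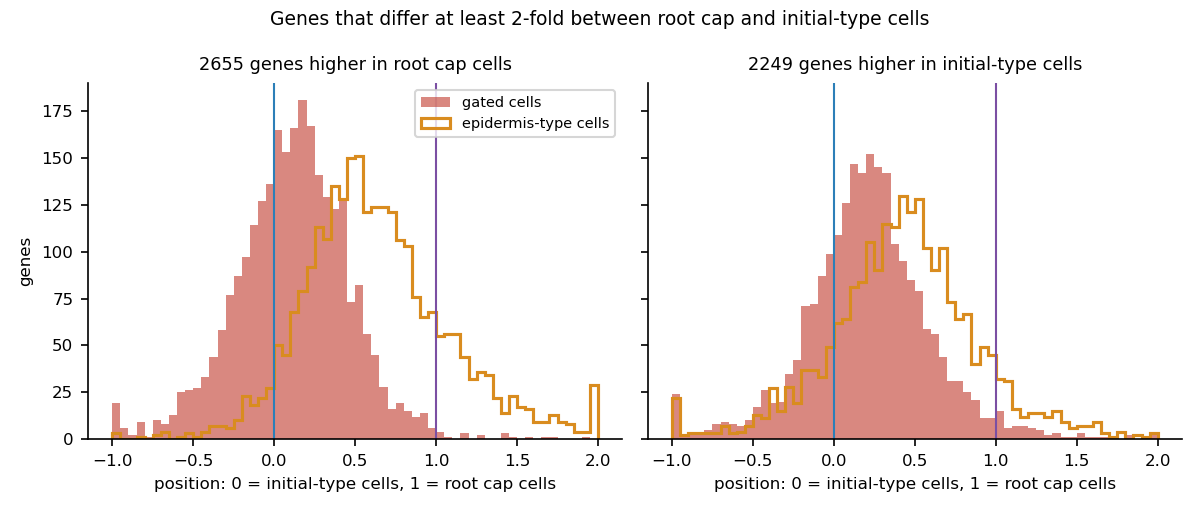
Number of genes (y axis) by position (x axis, where 0 is the level in initial-type cells and 1 that in root cap cells, on the log2 scale, with values beyond -1 and 2 drawn at the ends), for 2655 genes higher in root cap cells (left) and 2249 genes higher in initial-type cells (right). Gated cells (filled) centre near 0.13 and 0.21, and epidermis-type cells (line) near 0.58 and 0.43.

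A smaller set of genes was higher in gated cells than on either side. Of 16810 genes, 68 were called at least 2-fold higher in gated cells than in each of the initial-type, root cap and epidermis-type cells, 41 were at least 2-fold lower than in each, and 13 of the 68 reached 100 CPM in both replicates. In the single comparisons, 1.69% of genes were called at least 2-fold higher than in initial-type cells, 11.1% than in root cap cells and 8.04% than in epidermis-type cells, and 1.87%, 13.8% and 13.5% at least 2-fold lower. The most abundant was PH02Gene42656, annotated as dynein light chain LC6, a small subunit known from motor complexes of animals and algae. It was at 2293 and 2167 CPM in gated cells, 825 and 993 CPM in initial-type cells, 954 and 887 CPM in root cap cells, and 1172 and 1226 CPM in epidermis-type cells. Its log2 fold change was 1.30 ± 0.094 against initial-type cells (adjusted p = 4.47e-09).

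PH02Gene18400 had 44.1 and 42.1 CPM in initial-type cells (1.93 ± 0.14, adjusted p = 4.47e-09) and 60.7 and 41.7 CPM in root cap cells (1.83 ± 0.16, adjusted p = 3.22e-09). PH02Gene32504, annotated as a pyruvate dehydrogenase kinase, which slows the entry of carbon into the citric acid cycle, was at 238 and 236 CPM in gated cells, 123 and 114 CPM in initial-type cells and 84.6 and 88.4 CPM in root cap cells. PH02Gene35657, annotated as the transcription factor bZIP6, was at 155 and 138 CPM in gated cells, 66.1 and 69.6 CPM in initial-type cells and 75.3 and 71 CPM in root cap cells. For each of these genes both replicates of the gated cells were above both replicates of the initial-type and the root cap cells. PH02Gene02925, annotated as S-norcoclaurine synthase 1-like, PH02Gene21684, PH02Gene39337, PH02Gene05401, PH02Gene30246, PH02Gene30487, PH02Gene15256, PH02Gene31243 and PH02Gene45583 complete the 13. They were picked out after their values were seen, and the gate on markers of the same cells bears on all of them. Not all 13 stood apart from cells that passed both lower limits and missed 1 upper limit. PH02Gene30487 was at 328 and 379 CPM in cells barred by PH02Gene04325 alone, overlapping the 376 and 409 CPM of gated cells. PH02Gene42656 was at 1525 and 1940 CPM in cells barred by PH02Gene29592 alone. PH02Gene18400 was further apart, with 56 and 77.8 CPM in the former and 38.7 and 61.9 CPM in the latter.

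The cells that passed both lower limits and were turned away by PH02Gene04325 alone were compared as a description, with no test. They belong to the initial-type cells by definition, as 91 of 348 and 87 of 356 cells. PH02Gene30511 was at 361 and 348 CPM in gated cells, against 821 and 707 CPM in the turned-away cells, and PH02Gene38077 was at 1554 and 1738 CPM in gated cells, against 2683 and 2388 CPM in the turned-away cells. PH02Gene11309 was at 1122 and 1007 CPM in gated cells, against 464 and 554 CPM in the turned-away cells. For these genes, which were picked, the replicates of the gated and the turned-away cells did not overlap. How many of all genes did so was not counted, so nothing more is read from it. PH02Gene04325, which split these cells, and PH02Gene30511 are both markers the study uses for initials. For other genes the values were nearer to each other. The gated cells had 880.0 and 940.3 CPM of PH02Gene12244, against 798 and 917 CPM in the turned-away cells, 509 and 457 CPM of PH02Gene33231, against 465 and 444 CPM, and 241 and 208 CPM of PH02Gene22100, against 182 and 246 CPM.

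Gated cells differed among themselves as well. With each cell thinned to 4000 UMIs, the variance over the mean of the counts had a median of 1.45 and 1.46 over 1682 genes, and 1 is the value of pure counting. PH02Gene49134 reached 7.88 and 6.97 and PH02Gene38077 reached 6.87 and 6.91, so both germin-like genes were among the 11 most variable genes of 1682. Across cells the germin-like genes had a Spearman's rho of 0.04 and -0.04 over 248 and 235 cells, and the TAZ genes PH02Gene11309 and PH02Gene13991 had 0.40 and 0.43. Between PH02Gene11309 and PH02Gene38077 rho was -0.18 and -0.31. These correlations share library and thinned depth, and they are given as a description.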

How the data were processed

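Basal root tips were digested to protoplasts and sequenced as 2 10x Genomics libraries. The authors made UMI counts per gene and cell with Cell Ranger 5.0.1 and STAR (tools as in the submitters' processing notes), and these deposited counts were used unchanged. Per the study's methods, reads were aligned to the moso bamboo genome with its annotation; the build's version is not given in the sources used here. Cells with more than 500 genes were kept (15304 of 15324 barcodes), and those with at least 4000 UMIs entered the groups. No mitochondrial filter and no doublet caller were applied. UMIs were summed per library and group, and sums ranged from 1300692 to 33661044 UMIs.

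Sums were tested with edgeR 4.0.16 (TMM scaling, quasi-likelihood, filterByExpr, Benjamini-Hochberg adjustment over all genes) in R 4.3.3. Gated cells and all other cells formed the first fit, and the 4 groups formed the second. The code was tested on simulated data. The genes of the rule were left out of tests, as was PH02Gene15627 against root cap cells and PH02Gene14566 against epidermis-type cells. Levels are CPM of summed UMIs. The named genes were the 12 largest rises and 12 largest falls against all other cells among called genes of the same direction in both replicates with at least 100 CPM in the higher group, and the genes of the lists. Members and lists were chosen with earlier results of these data known. Annotations are those of the study, and no reference was used.

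Sums of the same replicate number come from the same library, so the number pairs them. Deviations from the group means correlated at 0.244 over 6836 genes between gated and all other cells, and at 0.094 to 0.263 between the 4 groups. Alternatives were DESeq2 1.42.0, RLE factors, no filter, the replicate block, other limits, thinning, omission of each replicate and, chosen after seeing the data, total UMIs alone and omission of shared barcodes.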

Additional observations from a re-analysis of the deposited data

How the results depend on the processing

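Calls against all other cells depended most on scaling and depth. Genes called higher against all other cells numbered 4036, with 2529 after thinning to 4000 UMIs per cell and 2241 with total UMIs alone, an alternative chosen after seeing the data. Genes called lower there numbered 3897, with 2533 under DESeq2, 2448 after thinning and 6360 with total UMIs alone. Against initial-type cells, 1110 genes higher became 698 under DESeq2 and 710 after thinning, and 1130 lower became 688 and 661. Against root cap cells, 3450 higher became 2269 after thinning. Against epidermis-type cells, 4125 higher became 2540 under DESeq2, 2704 after thinning and 2619 with total UMIs alone, and 3566 lower became 2250 under DESeq2.

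With 1 library left out there is no test, so genes of at least 2-fold difference were counted. Against initial-type cells, 443 such genes were higher and 584 lower by the mean log2 ratio of both libraries. When a replicate was left out, 572 to 916 were higher and 836 to 1019 lower, the larger numbers without replicate 2. Against all other cells the counts by the mean were 1116 and 5550, with 1444 to 1461 and 5106 to 5359 when a replicate was left out. Against root cap cells they were 2167 and 2721, with 2381 to 2426 and 2874 to 2954. Against epidermis-type cells they were 1227 and 2375, with 1368 to 1494 and 2481 to 2559. The share of gated cells was 6.40% to 7.25% with a replicate left out, 8.07% and 5.59% at limits of 800 and 1600 CPM on PH02Gene02039, 8.46% and 5.47% at limits of 400 and 800 CPM on the pair, and 6.16% from 2000 UMIs per cell. The share of genes between initial-type and root cap cells was 51.5%, 58.4% among genes of at least 4-fold difference, 48.5% after thinning, and 65.3% to 68.7% with a replicate left out, where a gene has to lie between in 1 replicate only.

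The log2 fold changes of 5 genes against all other cells changed sign with total UMIs alone, to -0.032 for PH02Gene14168, -0.245 for PH02Gene23251, -0.0173 for PH02Gene29708, -0.222 for PH02Gene34765 and -0.0157 for PH02Gene47351. Of 5560 values of named genes under alternatives with a test, 5297 kept their direction and call, 149 lost and 109 gained a call. With a replicate left out, 0 of the called values changed sign. The replicate block added a call in 26 of 718 values and removed 0, and it gave 4262 genes higher and 4002 lower against all other cells. It moved no count by over 1.5 times. The cause of these shifts was not tested. Genes under about 30 UMIs in gated cells were not resolved well at this depth.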

Other observations

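Some genes varied widely from cell to cell among the gated cells. With each cell thinned to 4000 UMIs, PH02Gene11536, annotated as a wound-induced proteinase inhibitor of the Bowman-Birk type, had a variance over mean of 13.8 and 13.3. PH02Gene00015, annotated as pathogenesis-related protein 1, reached 12.7 and 14.4, and PH02Gene13412, which has no description, reached 13.8 and 15.4. Counts of PH02Gene00015 and PH02Gene11536 rose together across cells (Spearman's rho 0.32 and 0.45 over 248 and 235 cells, as a description). Among the genes of the rule, PH02Gene10382 ranked 104, PH02Gene02039 ranked 128 and PH02Gene17549 ranked 394 of 1682 genes by this measure.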
